A study of Mus musculus with 2 samples.

Results

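The genes described here carry out or regulate glycolysis, or respond to low oxygen. They were chosen by name, with earlier results of these data known. The list held 36 genes, and the probe sets whose only gene symbol in the platform annotation was one of them were taken. Of the 36 genes, 33 had such a probe set, among 18194 genes in all, and these 33 had 71 probe sets. Gpi1, Eno1 and Pfkfb1 had none in that annotation and are not analysed here. On these arrays a set of short oligonucleotide probes against 1 transcript, a probe set, gives 1 signal. The members were described in 3 groups: 19 genes for the steps from glucose uptake to lactate export, 7 genes of the Pdk and Pfkfb regulators, and 7 hypoxia genes.

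RNA was measured on 2 Affymetrix MOE430 2.0 microarrays, 1 of mouse embryonic stem (ES) cells labelled as a constitutive knockout of Eed (Eed KO) and 1 of ES cells labelled as its control. The Eed protein belongs to the core of Polycomb repressive complex 2, the enzyme that methylates lysine 27 on histone H3. The labels give no treatment, time or culture condition, and do not say what oxygen level the cells were kept at, whether the Eed KO line is 1 clone, whether both lines share a parent, or whether feeder cells were present. With 1 array per group there is no replicate, so no difference below has a replicate check, no error between samples or p-value could be given, and the precision of each value is limited by the number of arrays.

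Glycolysis turns glucose into pyruvate in the cytosol. Pyruvate is then reduced to lactate by lactate dehydrogenase or enters the mitochondria through the pyruvate dehydrogenase complex, which the Pdk kinases switch off. The Pfkfb enzymes make and break down fructose 2,6-bisphosphate, the activator of phosphofructokinase. When oxygen is scarce, the hypoxia-inducible factors (HIF), encoded by Hif1a and Epas1, escape the prolyl hydroxylases Egln1 and Egln3 and switch on target genes, among them many glycolytic ones. Pluripotent cells are known for high glycolytic flux.

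Across the members, Vegfa, Pfkp and Pdk2 (3 of 33) had a signal at least 2-fold higher on the Eed KO array and Pdk1, Egln3 and Ankrd37 (3 of 33) one at least 2-fold lower. That is 9.09% in each direction, beside 10.8% higher and 3.27% lower among the 13795 measured genes. Most glycolytic step genes had a slightly lower signal in the Eed KO, with a median log2 ratio of -0.37 over 19 genes against 0.12 over all measured genes. The hypoxia genes went both ways, from a log2 ratio of 2.01 for Vegfa to -1.42 for Egln3. Isozymes of 1 step often went opposite ways: Slc2a3, Hk1 and Pfkp had ratios above 1, and Slc2a1, Hk2, Pfkl and Pfkm below 1. A ratio here is the Eed KO signal over the control signal, and signals under a floor of 61.3 were first set to it. Each gene stands for its brightest probe set.

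How far signal ratios depended on the scaling of the arrays touches every direction given here. With both arrays set to an equal median signal, 873 of 13741 genes were at least 2-fold higher and 1034 lower, in place of 1483 and 451 of 13795, and the median log2 ratio of all genes moved from 0.12 to -0.16. Over 10 other ways of processing, 27 of the 33 members kept their direction in each one in which they were measured. The 6 that did not were Aldoa, Gapdh, Eno2, Pdk3, Pdk4 and Pfkfb3. Of the 35 further measured probe sets of the members, 33 went the same way as the brightest one, and the 2 exceptions belonged to Aldoa and Gapdh, which lay close to a ratio of 1. Over all genes, the SD of log2 ratios for a single probe set, estimated from the disagreement between a gene's 2 brightest probe sets, was 0.49 at signals up to 128, 0.37 between 128 and 512, 0.23 between 512 and 2048 and 0.18 above. That spread covers technical and isoform differences within this array pair, and not differences between cultures.

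The promoters of the 6 members that were at least 2-fold apart are shown because HIF binds a short core motif near many of its target genes, and these 6 include known targets that went opposite ways. Each line runs 5′ to 3′ along the gene's strand, from 250 bases before to 50 after the most upstream annotated start, in RefSeq sequence of build GRCm38.p6. Capitals mark the 5-letter core ACGTG or GCGTG on either strand (CACGT or CACGC when read on the gene's strand), and overlapping matches were counted separately.
Vegfa (chr17:46032328-46032627, minus strand): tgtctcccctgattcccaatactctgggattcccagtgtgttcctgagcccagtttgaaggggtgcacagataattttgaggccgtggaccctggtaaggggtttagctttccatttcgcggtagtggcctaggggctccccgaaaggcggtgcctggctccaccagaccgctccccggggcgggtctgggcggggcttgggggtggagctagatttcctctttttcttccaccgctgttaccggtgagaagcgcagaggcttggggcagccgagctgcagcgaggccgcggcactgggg
Pfkp (chr13:6648722-6649021, minus strand): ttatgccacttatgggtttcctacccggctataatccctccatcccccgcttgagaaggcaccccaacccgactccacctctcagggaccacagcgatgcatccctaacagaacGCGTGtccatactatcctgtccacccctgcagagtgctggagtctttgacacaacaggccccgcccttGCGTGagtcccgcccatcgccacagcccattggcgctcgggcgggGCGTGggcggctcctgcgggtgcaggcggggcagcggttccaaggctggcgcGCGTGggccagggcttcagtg
Pdk2 (chr11:95041322-95041621, minus strand): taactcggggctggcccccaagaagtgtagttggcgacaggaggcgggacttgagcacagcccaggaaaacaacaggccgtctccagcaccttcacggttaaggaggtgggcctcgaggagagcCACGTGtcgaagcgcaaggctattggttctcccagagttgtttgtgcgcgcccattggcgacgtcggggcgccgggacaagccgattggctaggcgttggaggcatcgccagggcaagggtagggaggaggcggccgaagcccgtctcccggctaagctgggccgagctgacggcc
Ankrd37 (chr8:45999801-46000100, minus strand): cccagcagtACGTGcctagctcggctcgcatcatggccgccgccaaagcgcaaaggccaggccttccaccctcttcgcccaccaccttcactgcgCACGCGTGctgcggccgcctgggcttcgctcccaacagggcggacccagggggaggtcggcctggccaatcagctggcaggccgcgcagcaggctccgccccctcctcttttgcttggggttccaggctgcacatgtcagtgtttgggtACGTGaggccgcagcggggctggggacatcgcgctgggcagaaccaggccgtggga
Egln3 (chr12:54203825-54204124, minus strand): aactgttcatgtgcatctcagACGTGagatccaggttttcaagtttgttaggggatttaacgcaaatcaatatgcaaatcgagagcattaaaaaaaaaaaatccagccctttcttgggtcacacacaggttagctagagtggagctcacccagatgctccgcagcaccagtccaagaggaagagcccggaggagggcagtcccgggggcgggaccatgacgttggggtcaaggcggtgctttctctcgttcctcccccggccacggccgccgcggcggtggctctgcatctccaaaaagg
Pdk1 (chr2:71872974-71873273, plus strand): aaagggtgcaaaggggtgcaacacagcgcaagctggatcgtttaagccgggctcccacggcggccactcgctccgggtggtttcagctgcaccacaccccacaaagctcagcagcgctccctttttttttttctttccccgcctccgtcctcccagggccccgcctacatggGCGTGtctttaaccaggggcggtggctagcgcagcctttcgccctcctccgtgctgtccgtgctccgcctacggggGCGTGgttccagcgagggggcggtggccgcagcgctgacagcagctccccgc

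The first 3 promoters belong to the members that were higher in the Eed KO and the last 3 to those that were lower. The windows of Pfkp and Ankrd37 held 4 matches each, those of Pdk2 and Pdk1 held 2, that of Egln3 held 1 and that of Vegfa held 0. A pair of matches in Ankrd37, at bases -155 and -152 from the start, overlap in a palindrome, as do the pair in Pdk2 at -126 and -125. A second annotated Vegfa start, downstream of the first along the gene, had 2 matches in its window (chr17:46025114-46025413). The second starts of Pdk1 and Pdk2 had 0. Matches were therefore present in windows of genes that went either way. Bases further from a start were not searched, so a count of 0 refers to the window alone.

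Over all members with a promoter in the table, 37 of 46 windows (80.4%) held at least 1 match, beside 14380 of 32851 windows (43.8%) of all genes. The promoter table held 31 of the 33 members, without Epas1 and Slc2a3. The motif contains a CG pair, and the members' windows had a median of 16.5 such pairs against 7 over all windows. Among windows with at least 20 CG pairs, 20 of 21 member windows (95.2%) and 6404 of 8701 of all windows (73.6%) held a match. Of the members within 2-fold, 31 of 37 windows held one (83.8%), as did 3 of 4 windows of the lower and 3 of 5 of the higher members. Counted by gene, a match was held by 23 of 25 members within 2-fold, 3 of 3 lower and 3 of 3 higher ones. That compares with 12628 of 27025 of all genes (46.7%). Some windows of a gene overlap, so a site can be counted in more than 1 window. A match is a run of letters and does not show that a factor binds there.

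**Figure D1:**
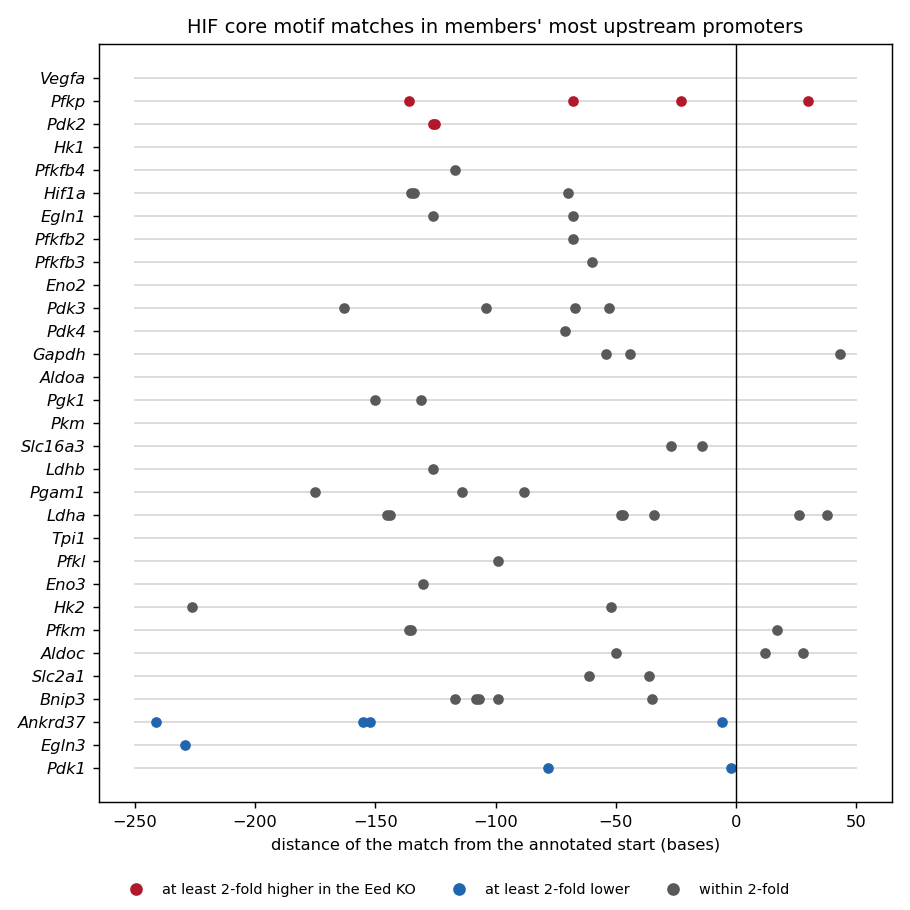
Positions of the HIF core motif in the most upstream promoter of 31 members, in bases from the annotated start (vertical line), with genes ordered by their log2 ratio from the highest at the top (Vegfa, 2.01) to the lowest at the bottom (Pdk1, -1.54). Each dot is the first base of a match, coloured by whether the gene was at least 2-fold higher, at least 2-fold lower or within 2-fold; dots occur at both ends of the order, with 0 for Vegfa and 4 for Pfkp and Ankrd37.

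Glucose enters ES cells through facilitative transporters of the Slc2a family. Slc2a1, which encodes the widely expressed transporter Glut1, read 9246 on the control array and 5614 on the Eed KO array, 1.65-fold lower. All 3 of its probe sets were lower, with log2 ratios of -0.87 to -0.72, and it reached 2-fold (-1.03) with equal array medians. Slc2a3, which encodes the high-affinity transporter Glut3, read 18237 on the control array and 26447 on the Eed KO array, 1.45-fold higher. Its 4 probe sets had log2 ratios of 0.54 to 0.97, so no probe set of one transporter overlapped those of the other. The difference between the log2 ratios of Slc2a3 and Slc2a1 was 1.26, and it ranged from 1.26 to 1.84 over the 12 pairs of their probe sets. Such a difference within 1 array pair shows unequal change and does not depend on a common scaling factor.

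Hexokinases phosphorylate glucose and so keep it in the cell. Hk1, the broadly expressed form, read 1031 and 1656 (control first, here and below), 1.61-fold higher in the Eed KO. Its other probe set had a log2 ratio of 1.14, above the 2-fold size that the brighter one (0.68) did not reach. Hk2, the form known for its response to insulin and hypoxia, read 4502 and 2998 on its only probe set, a log2 ratio of -0.59. Their log2 ratios differed by 1.27, with Hk1 above Hk2 by at least 1.19 in all 10 alternatives. Scaling by a constant factor and the other floors could not change this difference, so only some of the alternatives checked it.

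Phosphofructokinase commits the sugar to glycolysis and is built from liver (Pfkl), muscle (Pfkm) and platelet (Pfkp) subunits. Pfkp read 1976 and 5062, 2.56-fold higher, which made it the 1 glycolytic step gene of 19 at least 2-fold higher. Its other probe sets read 1002 and 1873, and 264.4 and 545.0, with log2 ratios of 0.90 and 1.04. Over the alternatives the log2 ratio of Pfkp lay between 1.05 and 1.45. The other subunits had lower signals in the Eed KO: Pfkl read 5486 and 3904 (1.40-fold lower, 3 probe sets between -0.49 and -0.25), and Pfkm 1301 and 865.5 (log2 ratio -0.59, 1 probe set). The log2 ratio of Pfkp exceeded that of Pfkl by 1.85 and that of Pfkm by 1.95, and each of the 9 and 3 pairs of probe sets had the same sign.

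The middle and lower steps were mostly within 1.5-fold. Tpi1, the triose phosphate isomerase, read 11335 and 8348 (1.36-fold lower), with all 3 probe sets at log2 ratios of -0.45 to -0.44. Pgam1, the phosphoglycerate mutase, read 14805 and 11195 (1.32-fold lower). Pgk1, the first enzyme of the path to yield ATP, read 19228 and 16809, and Pkm, the pyruvate kinase, 23439 and 19729, with log2 ratios of -0.19 and -0.25. These 4 genes were each lower in the Eed KO array under the 10 alternatives, Pgk1 by as little as -0.06 on the log2 scale after removal of the intensity trend.

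Gapdh and Aldoa were nearly equal on the 2 arrays. Gapdh, the glyceraldehyde phosphate dehydrogenase, was read by 3 probe sets that the manufacturer placed on the array as controls along the transcript. Its 5′, middle and 3′ signals were 40110, 34454 and 31718 in the control and 41230, 33804 and 32510 in the Eed KO, with log2 ratios between -0.03 and 0.04. The direction for Gapdh turned in 3 scalings, down to -0.27 with equal medians. A further 3 Gapdh probe sets also match pseudogenes in the annotation and were not used. Aldoa, the main aldolase, read 14685 and 14197, and its 5 probe sets had log2 ratios of -0.14 to 0.11; its direction turned when the intensity trend was removed and when the arrays were quantile normalized. All 5 end in _x_at, the manufacturer's mark for probes that can hybridize to other transcripts.

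Further isozymes of these steps were within 2-fold. Aldoc, the brain-type aldolase, read 965.0 and 632.4 (1.53-fold lower), and a second probe set stayed below the floor on either array. Eno3, the muscle enolase, read 736.2 and 520.2 (1.42-fold lower). Eno2, the neuronal enolase, read 129.0 and 152.1, a log2 ratio of 0.24 that turned to -0.07 with equal medians and also turned sign after quantile normalization and trend removal.

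At the end of the path, both subunits of lactate dehydrogenase had lower signals in the Eed KO. Ldha, the subunit that favours making lactate, read 22432 and 16769 (1.34-fold lower), and Ldhb, the subunit that favours using it, read 2852 and 2201 (1.30-fold lower), with 4 probe sets between -0.72 and -0.32. The log2 ratios of the pair differed by -0.05 (Ldha minus Ldhb), and the sign of that difference turned within the alternatives, from -0.05 to 0.04. Unlike the pairs above, they showed no difference in change that held over the alternatives. Slc16a3, the lactate exporter Mct4, read 708.9 and 595.2, a log2 ratio of -0.25.

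**Figure D2:**
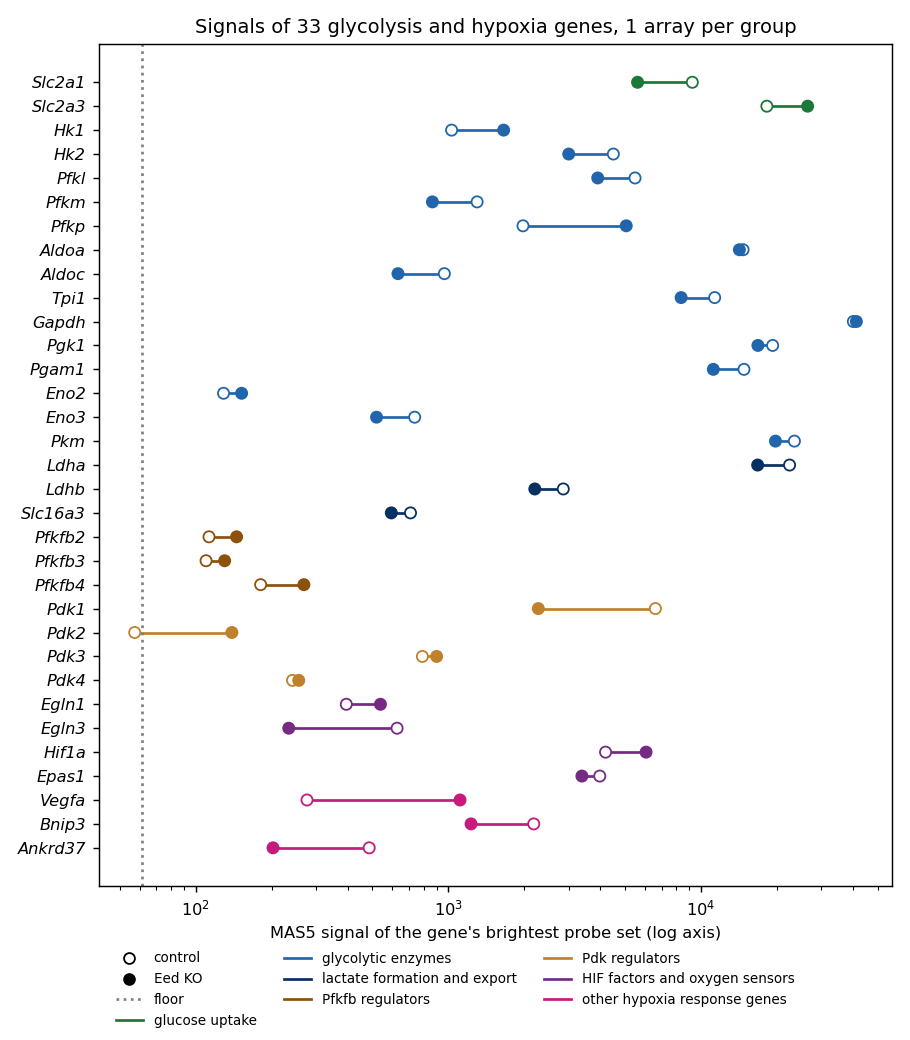
Signal of each member's brightest probe set (log axis) on the control array (open circles) and the Eed KO array (filled circles), coloured by role, with the floor of 61.3 as a dotted line. Most glycolytic enzymes have the filled circle slightly to the left, while Pfkp (1976 to 5062) and Vegfa (276.0 to 1113) lie to the right and Pdk1 (6605 to 2272) and Egln3 (627.2 to 233.7) to the left.

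As a group, 14 of the 19 glycolytic step genes had a ratio below 1 and 5 above. At the 2-fold size 1 was higher (5.26%, against 10.8% of all measured genes) and 0 lower (against 3.27%). The group's median of -0.37 ranged from -0.68 to -0.29 over the 10 alternatives. Bright genes in general had lower ratios on this array pair: among the 1028 genes with a mean signal of at least 4096, 64.1% had a ratio below 1 and the median log2 ratio was -0.12. Of the 10 glycolytic step genes in that range, 8 had a ratio below 1, and their median was -0.33. Among the 4089 genes of at least 1024, 58.1% had a ratio below 1 with a median of -0.09, beside 11 of 15 glycolytic step genes and a median of -0.37. At the 2-fold size, 4.16% of these 4089 genes were higher and 3.35% lower, and of the 1028 brighter ones 2.43% and 1.75%. The 5.26% was thus below the share of all measured genes but not below that of the bright ones.

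The kinases that switch off pyruvate dehydrogenase differed from one another. Pdk1, known as a HIF target, read 6605 on the control array and 2272 on the Eed KO array, 2.91-fold lower. Its other 3 probe sets read 4509 and 1334, 697.8 and 373.9, and 233.0 and under the floor, with log2 ratios of -1.76, -0.90 and at most -1.93. All 4 probe sets were thus lower in the Eed KO, and the log2 ratio of the gene lay between -1.85 and -1.44 over the alternatives. Pdk2 was under the floor in the control at 57.4 and read 139.2 in the Eed KO, at least 2.27-fold higher. That call rested on 1 dim probe set and was lost under 4 alternatives, with a log2 ratio down to 0.76, and Pdk2 was not measured with the floor at the 60th percentile. Its direction was fixed by the floor.

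The remaining kinases were near a ratio of 1. Pdk3 read 789.8 and 899.5, and Pdk4, the form known for its response to fasting, 241.9 and 256.0, with log2 ratios of 0.19 and 0.08 that turned to -0.12 and -0.23 with equal medians. The log2 ratio of Pdk1 lay below that of Pdk3 by 1.73 and below that of Pdk4 by 1.62. Each of the 4 pairs of probe sets gave the same sign in both cases.

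The Pfkfb genes had low signals on both arrays and ratios slightly above 1. Pfkfb4 read 180.9 and 268.3 (1.48-fold higher), Pfkfb2 113.0 and 145.3, and Pfkfb3, the form with high kinase activity, 110.0 and 130.3. The second Pfkfb3 probe set read 74.9 and 143.7, a log2 ratio of 0.94 against 0.24 for the first. The direction of Pfkfb3 turned in 3 scalings, down to -0.06. Of the 7 Pdk and Pfkfb genes measured, 6 had a ratio above 1 and the median was 0.24, which turned to -0.06 with equal array medians.

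**Figure D3:**
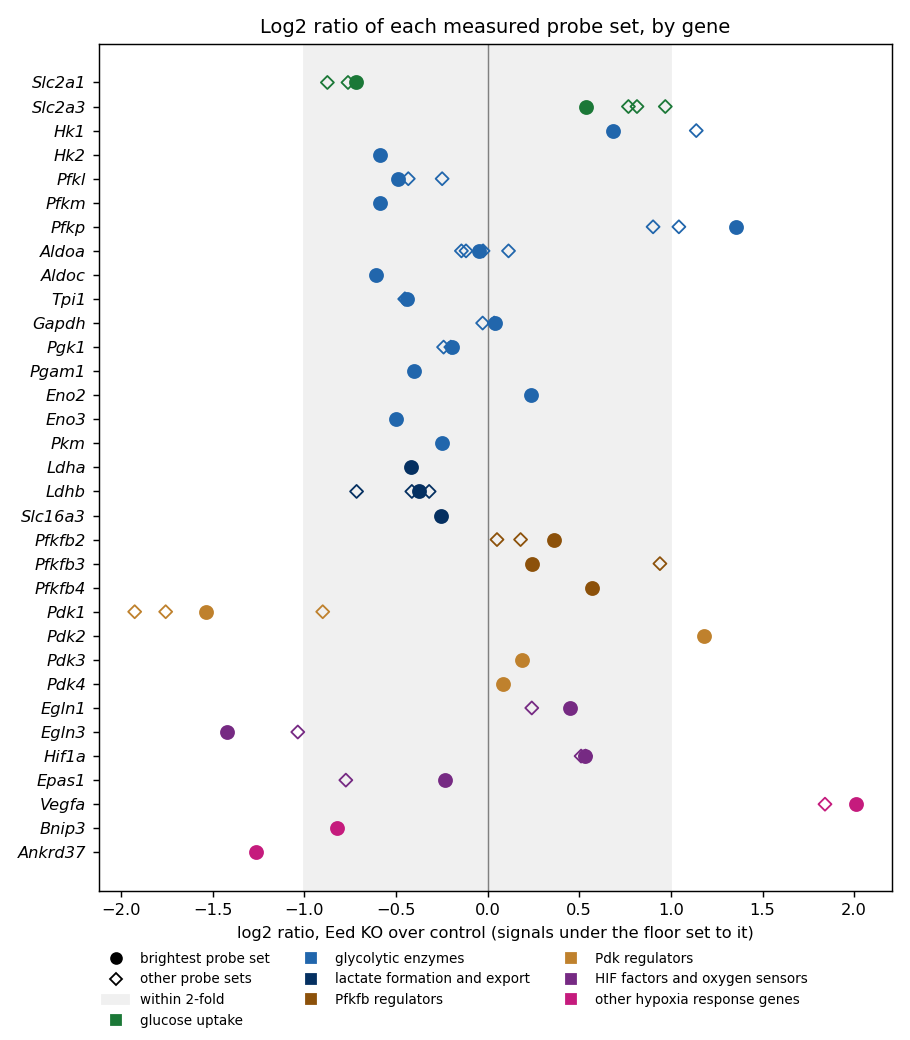
Log2 ratio (Eed KO over control) of each of the 68 measured probe sets by gene, with the brightest probe set as a filled circle, the others as open diamonds and the range within 2-fold shaded. All 4 Pdk1, both Egln3 and both Vegfa probe sets fall on the same side of 0, and the Slc2a1 probe sets (-0.87 to -0.72) lie apart from those of Slc2a3 (0.54 to 0.97).

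Among the hypoxia genes, Vegfa, the growth factor for blood vessels and a textbook HIF target, was the member with the largest ratio. It read 276.0 on the control array and 1113 on the Eed KO array, 4.03-fold higher, and its other probe set read 159.4 and 571.0 (log2 ratio 1.84). Over the alternatives its log2 ratio lay between 1.70 and 2.01. Ankrd37, an ankyrin repeat protein gene also known as a HIF target, went the other way, from 486.5 to 202.5 on its only probe set (2.40-fold lower, log2 ratios of -1.57 to -1.05 over the alternatives). Bnip3, a mitophagy receptor induced by hypoxia, read 2180 and 1231, 1.77-fold lower. It was the member nearest to 2-fold without reaching it, and it passed 2-fold with equal medians (-1.13) and with scaling on the poly-A spikes (-1.02).

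The oxygen sensors of the prolyl hydroxylase family differed from each other. Egln3, which is itself HIF-inducible, read 627.2 and 233.7, 2.68-fold lower, and its other probe set read 229.7 and 112.0, with a log2 ratio of -1.04. Egln1, the main HIF hydroxylase, read 394.9 and 539.0 (1.36-fold higher), with its other probe set at 0.24. Their log2 ratios differed by 1.87, and by 1.28 to 1.87 over the 4 pairs of probe sets. Egln3 was at least 2-fold lower in all 10 alternatives, at log2 ratios of -1.73 to -1.22.

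The transcripts of the factors themselves were within 1.5-fold. Hif1a read 4194 and 6066, 1.45-fold higher, and its 3 measured probe sets agreed closely at log2 ratios of 0.51 to 0.53. The remaining one was under the floor on both arrays. Epas1, which encodes Hif-2α, read 3978 and 3380, a log2 ratio of -0.23, with its second probe set at -0.77. HIF proteins are controlled mainly by their breakdown, which signals of RNA do not measure.

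Of the 7 hypoxia genes, then, 1 was at least 2-fold higher (14.3%, against 10.8% of all measured genes) and 2 lower (28.6%, against 3.27%), with 7 genes too few to say more than these counts. The log2 ratio of Vegfa exceeded that of Egln3 by 3.44, and by 3.02 to 3.48 over the alternatives. Scaling by a constant factor could not change that difference.

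**Figure D4:**
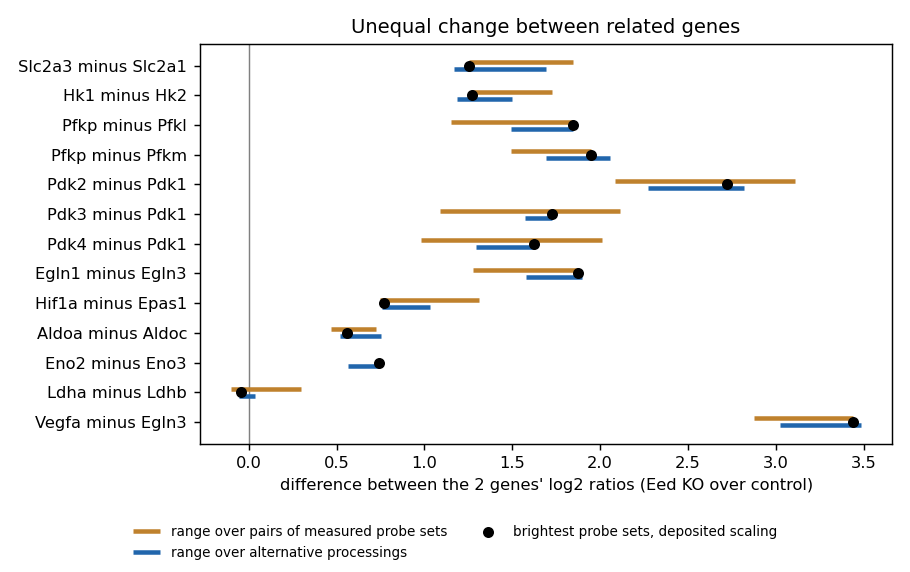
Difference between the log2 ratios (Eed KO over control) of related members, as named on the vertical axis; black dots are the values with the brightest probe sets, blue bars the range over alternative processings and brown bars the range over all pairs of the 2 genes' measured probe sets. Every bar lies above 0 except those of Ldha minus Ldhb, which span it (-0.05 to 0.04 over the alternatives). For signals above the floor, scaling by a constant factor leaves such a difference unchanged and adds no width to the blue bars.

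A wider list of 47 hypoxia-inducible genes, none of them a member, was also read. This list and those below were drawn up with earlier results of these data known, so their shares are not independent of these data. On the Eed KO array 10 of the 41 measured (24.4%) reached 2-fold upward and 1 (2.44%) downward, beside 10.8% and 3.27% of all measured genes, with a median log2 ratio of 0.51 against 0.12. Stc1, one of the 10, was under the floor on the control array, so its direction was fixed by the floor. Over the alternatives, 7 to 11 were higher, 0 or 1 lower and the median was 0.22 to 0.55. The higher ones included Adm, the vasodilator adrenomedullin (135.8 to 513.1, log2 ratio 1.92, with a second probe set at 0.84), Anxa2, a membrane-binding annexin (1.80), Lox, the collagen cross-linking lysyl oxidase (1.72), and the secreted glycoprotein gene Stc2 (170.9 to 484.5). The lower one was Tfrc, the transferrin receptor, at 8485 and 3990 (log2 ratio -1.09, with 5 further probe sets from -1.62 to -1.35, and -0.98 at the weakest among the alternatives). Upward calls also outnumbered downward ones over all genes, at 76.7% of calls.

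Markers of several other cell types and genes of a stress program were also read, and the share of all measured genes at least 2-fold higher, 10.8%, is the background for each count. Of 22 measured fibroblast markers 18 were at least 2-fold higher (81.8%, 14 to 18 genes over the alternatives), and their signals summed to 19639 on the control array and 48343 on the Eed KO array. Most of both sums came from Vim, Acta2 and Tagln. These read 4989, 4361 and 4491 on the control array and 11776, 10183 and 8702 on the Eed KO array. Fap and Lum, which mark fibroblasts, were under the floor on both arrays, and Dcn read 116.3 and 554.1. Of 16 genes of the integrated stress response 11 were at least 2-fold higher (68.8%, 7 to 12 genes over the alternatives), with a summed signal of 32680 and 76352, among them Nupr1, Chac1, Vldlr and Atf3 (log2 ratios 5.38, 4.61, 3.42 and 2.56, where Vldlr had 0.10 without _x_at and _s_at probe sets and Atf3 had 1.33 in its weakest alternative). Of the endoderm markers 7 of 14 were at least 2-fold higher (4 to 9 over the alternatives), and of the trophoblast markers 7 of 12 (5 to 9). Muscle markers were higher in 2 of 9 (0 to 2), too few genes to set apart from the background. Neural markers were higher in 0 of 11 and lower in 2 (18.2%, against 3.27% of all measured genes). Such markers in bulk RNA do not show whether cells of these types were present or whether the ES cells themselves held these RNAs. Any part of other cells or of this program in the signals of Vegfa, Pfkp and the wider hypoxia list was not tested. In bulk RNA, a change in the number of cells of a type and a change in RNA per cell cannot be told apart. The ES cell markers were present on both arrays, with signals for Pou5f1 (12948 and 11352) and Nanog (8007 and 14393) among them. Of the 19 measured, 2 were at least 2-fold higher (10.5%, against 10.8% of all measured genes) and 2 lower (10.5%, against 3.27%). The higher ones were Tbx3 and Klf4 (log2 ratios 2.68 and 1.37). The lower ones were Dppa4 (-1.22) and Gdf3 (-1.03, with a second probe set at -0.61). With equal array medians 2 were higher and 5 lower, where 1034 of all 13741 genes were lower. Over the alternatives 1 to 5 were lower.

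Components of the HIF pathway outside the members were mostly within 2-fold. Upward, 2 of the 16 measured genes reached 2-fold (12.5%, near the 10.8% of all genes), and downward 0, with a median log2 ratio of -0.00. The higher ones were Siah2, a ubiquitin ligase that degrades Egln3 (63.0 to 203.1, log2 ratio 1.69), and Arnt2 (1.11), and both calls depended on the processing, down to 0.27 for Siah2 with the higher of the other floors and 0.58 for Arnt2. Arnt, the shared partner of the HIF factors, was picked after its values were seen: its 2 brightest probe sets had log2 ratios of -0.99 and -0.48 and the third one of 0.99, so the probe sets disagreed.

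Genes of glucose and lactate handling outside the members included enzymes of gluconeogenesis. Upward, 6 of the 25 measured reached 2-fold (24%, against 10.8% of all genes), and downward 0 (against 3.27%). Over the alternatives 3 to 6 were higher and 0 or 1 lower, with 3 higher and 1 lower at equal array medians. Pck2, the mitochondrial enzyme that makes phosphoenolpyruvate, read 347.1 and 2849 (log2 ratio 3.04, 2.05 for its other probe set). Fbp2 and Fbp1, the fructose bisphosphatases of gluconeogenesis, had log2 ratios of 2.58 and 1.26. Other gluconeogenesis genes of the list were not raised. Pck1 read 65.7 and 73.2 (log2 ratio 0.16), and G6pc was under the floor on both arrays. Pcx read 268.9 and 293.4 (0.13), with its other probe sets between -0.38 and 0.54. Slc2a4, the insulin-regulated transporter gene, was under the floor on the control array at 61.1 and read 237.8 on the Eed KO array, at least 3.88-fold higher. Its direction was fixed by the floor, and its log2 ratio was 0.50 in the weakest alternative. The lactate transporter Slc16a1 read 7298 and 5361 and stayed within 2-fold, as did its partner Bsg at 9574 and 8679.

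Branches around glycolysis were read as 3 lists. None of the 9 measured pyruvate dehydrogenase complex and pyruvate carrier genes and none of the 8 pentose phosphate genes was 2-fold apart. The largest in each direction were Pdp2, a phosphatase that opposes the Pdk kinases (log2 ratio 0.73), and Pgd, the phosphogluconate dehydrogenase (-0.70). With equal array medians 1 pentose phosphate gene was at least 2-fold lower. Of 9 glycogen genes, 3 were at least 2-fold higher (33.3%, against 10.8% of all genes, on few genes): the liver phosphorylase Pygl (82.0 to 273.5), glycogenin Gyg (492.9 to 1148) and Ugp2 (1268 to 2623), with 1 to 4 over the alternatives.

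Of 16 measured regulators of metabolism, the 2-fold size was reached by 3 genes upward (18.8%, against 10.8% of all genes) and 2 downward (12.5%, against 3.27%). With equal median signals on both arrays, the numbers were 0 and 3. The lower ones were Mycn and Myc, transcription factors known to promote glycolytic genes. Mycn read 9079 and 2396 (log2 ratio -1.92, other probe sets -2.12 and -0.08), and Myc 1204 and 580.5 (log2 ratio -1.05, -0.98 with a pseudocount). The higher ones were the glucose-responsive arrestins Txnip (5297 to 11832, log2 ratio 1.16) and Arrdc4 (1015 to 2457, 1.28), which are known to limit glucose uptake through Glut1, and Mlxipl (1.18, and 0.74 in its weakest alternative), whose protein activates glucose-responsive genes. With equal array medians Txnip and Arrdc4 had log2 ratios of 0.85 and 0.97.

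**Figure D5:**
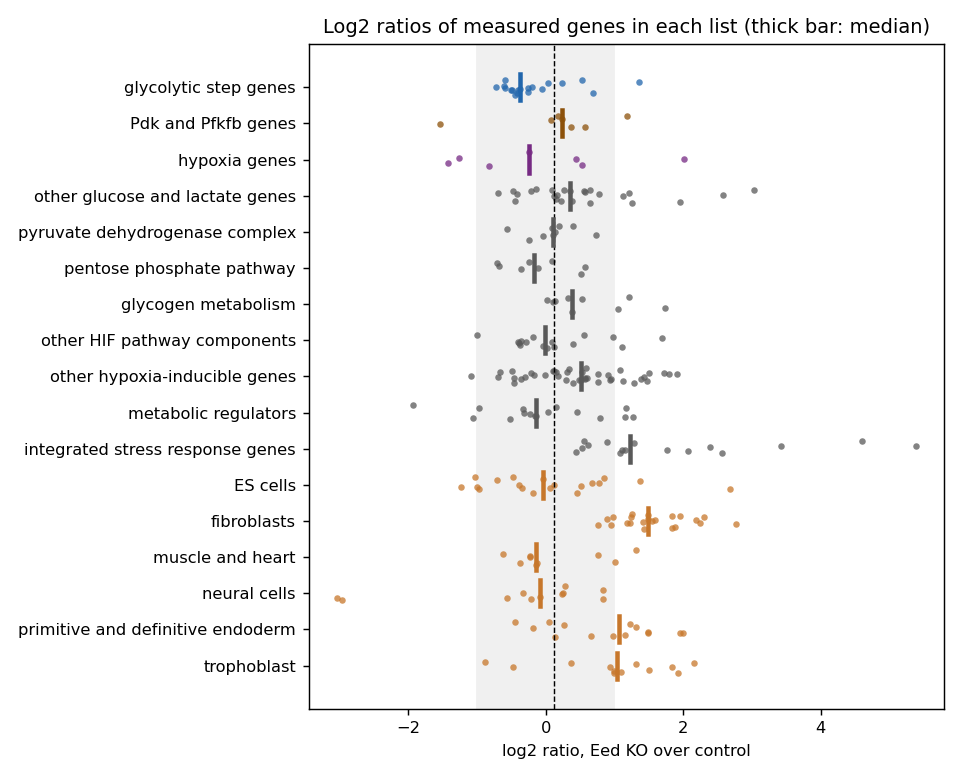
Log2 ratio (Eed KO over control) of each measured gene in the 3 member groups, the other gene lists (grey) and the cell type marker lists (orange), with a thick bar at each list's median, the range within 2-fold shaded and the median of all 13795 measured genes (0.12) as a dashed line. The glycolytic step genes lie mostly left of the dashed line (median -0.37), and the stress response (1.22) and fibroblast lists (1.49) lie to its right.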

How the data were processed

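Each of the 2 arrays was 1 sample, grouped by its title. MAS5 made the signals, per the submitters' processing notes; its version is not given in the sources used here. The authors deposited linear intensity values that had already been scaled, since on each array the 45101 probe sets had a mean of 500 after trimming 2% at each end. Median signals were 87.4 (control) and 108.1 (Eed KO), and the 18 hybridization spikes had a median ratio of 1.05. Eed itself read 10101 and 11456, a log2 ratio of 0.18. The labels do not place the disruption, so this signal does not show whether Eed function was lost.

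Names came from the platform's annotation table: 34945 probe sets had 1 symbol (13 control probe sets did as well), 932 several and 9160 none there. Of 18194 genes, 18033 had a gene ID in the RefSeq table, which changed 0 symbols. The brightest probe set by mean log2 signal stood for a gene. As a floor, the 40th percentile over both arrays without control probe sets (61.3) was used. A gene was measured if above the floor on at least 1 array and called at 2-fold. A ratio against a floored signal is a bound ("at least" or "at most"). No build enters these values; promoter coordinates are those of the sequence table.

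The 36 members, 8 other gene lists and 6 marker lists were chosen with earlier results of these data known. Every member was to be named, and of other lists up to 4 called genes with the largest log2 ratio. Tfrc, Slc16a1, Bsg, Pdp2, Pgd, Arnt, Dcn, Fap, Lum, Vim, Acta2, Tagln, Stc1, Myc, Pck1, Pcx, G6pc, Pou5f1 and Nanog were picked after their values were seen. The 10 alternatives for values (12 for counts) covered 5 scalings, 2 other floors, a pseudocount, the mean over probe sets, leaving out _x_at and _s_at probe sets and other fold sizes. The procedure was tested on simulated data with planted changes above 2-fold and less noise than the probe set spread given above. That test checked the computation and says nothing of how reliable the calls are. Python 3.11.15, pandas 2.3.3, numpy 2.4.6 and statsmodels 0.14.6 were used.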

Additional observations from a re-analysis of the deposited data

How the results depend on the processing

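No paired analysis was possible because each group had 1 array. Over the 10 alternatives for values, the calls for Vegfa, Pfkp, Pdk1, Egln3 and Ankrd37 kept their direction and stayed past 2-fold, and no member called at 2-fold turned sign. Pdk2 did not stay past it: the count of higher Pdk and Pfkfb genes was 0 in place of 1 after quantile normalization, with equal medians, after trend removal, with the floor at the 60th percentile (where Pdk2 was not measured) and with a pseudocount. With equal medians 5 members were lower in place of 3 (Slc2a1 and Bnip3 joined), 1 glycolytic step gene in place of 0, and 873 of all genes were higher and 1034 lower. With poly-A spike scaling 766 of all genes were lower. With the floor at the 25th percentile 2244 were higher and 684 lower, and with it at the 60th 806 were higher. At 1.5-fold, 8 of the 33 members were lower, while Vegfa, Pfkp, Pdk2 and Hk1 were higher. Of the glycolytic step genes 2 were then higher and 4 lower, and of all 13795 measured genes 3210 higher and 1413 lower. At 3-fold, 1 member was higher and 0 lower, with 0 higher glycolytic step genes, 0 Pdk and Pfkfb genes in either direction and 0 lower hypoxia genes, and of all genes 487 higher and 102 lower. The cause of these shifts was not tested beyond the size and floor that define them. The median of the glycolytic step genes stayed below 0 in all 10 alternatives (-0.68 to -0.29) and that of the hypoxia genes too (-0.54 to -0.13), while that of the Pdk and Pfkfb genes ran from -0.06 to 0.24. Signals near the floor, as for Pdk2 and the Pfkfb genes, limit what can be said of dim members.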
